A study of Drosophila melanogaster with 6 samples.

Results

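The alpha-esterase cluster of *Drosophila melanogaster* is a tandem array of 10 genes, *alpha-Est1* to *alpha-Est10*, on chromosome arm 3R. Its members here are the probe sets, groups of short probes read as 1 value, that the array's annotation assigns to exactly 1 of these genes. Such probe sets were found for 8 genes, 1 each, among the 11804 genes that the 15131 probe sets of the table name singly. *alpha-Est1* and *alpha-Est4* had no probe set of their own in that annotation and were not analysed here. The cluster was picked for description because of the 40-day against 10-day difference of *alpha-Est2*, which is therefore given below without a test, and the sizes for its neighbours come from the same samples.

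Total RNA of 6 samples was hybridised to Affymetrix 3' arrays, 1 array per sample. The flies were 40 days old in 3 samples and 10 days old in the other 3. The labels call them heads of females of Canton S, a common wild-type laboratory strain. Each sample pooled 75 to 100 heads, so no value belongs to a single fly, and the labels call the 3 samples of an age independent biological replicates, although samples with the same replicate number at both ages deviated together. No genotype or treatment other than age is named.

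Alpha-esterases are carboxylesterases, enzymes that cut ester bonds with a catalytic serine in an alpha/beta hydrolase fold. The insect genes of this cluster are thought to serve detoxification of plant and synthetic esters and the turnover of dietary and stored lipid, and the tandem array arose by gene duplication. The best known is *alpha-Est7*, whose counterpart in the sheep blowfly *Lucilia cuprina* carries the mutations known for resistance to organophosphate insecticides. The cluster also holds genes of other families, and a pseudogene, *alpha-Est4aPsi*, which RefSeq places over *alpha-Est6*.

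Marker genes of several tissues were present in every sample, and those of the male tract and the gut go against the label of female heads. The list of the male reproductive tract, 10 genes of 10, had a median log2 level of 14.78, led by the seminal fluid gene *Acp53Ea* at 15.45, while the 8 measured genes of the ovary and egg list were all under 4, the highest being *Vm34Ca* at 2.30. The 8 photoreceptor and neuron markers had a median of 9.21, with 1 gene under 4 and the arrestin gene *Arr2* brightest at 14.97. Gut enzymes (8 genes) had a median of 14.78 and their brightest gene, *alphaTry*, was at 15.21. The fat body list (11 genes) had a median of 12.09, with 3 genes under 4 and its brightest gene, *Cyp4g1*, at 16.07. The Malpighian tubule list (8 genes) had a median of 9.31, with *ClC-c* at 11.67, and the hemocyte list (7 genes) 7.88, with *SPARC* at 13.26. Whether each gene of a list is particular to the tissue that names it was not tested. Both samples of replicate number 2 stood apart on the first principal component, at 20.1 (40 days) and 26.8 (10 days), with the other 4 between -21.5 and -2.1. The array medians lay between 7.51 and 7.53, and the lowest value of the table was 2.06. The values are GCRMA expression on the log2 scale, so a difference of 1 is a 2-fold change, and the number of arrays limits their precision.

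Of the 8 members, 7 had a mean of at least 4 over the 6 arrays and entered the test between the ages. *alpha-Est2*, probe set 1633196_at, passed this filter only through its 10-day values. A lower mean at 40 days was therefore bound to follow, though not its size. The gene was also picked for its difference, so no count or median over the 7 is offered as support. *alpha-Est9*, probe set 1639001_a_at, did not pass it. Probe sets differ in how strongly they bind, so the levels below are compared between samples and not between genes.

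*alpha-Est2* was near background in the older samples and clearly measured in the younger ones. Its log2 values were 3.06, 3.27 and 3.22 in the 40-day replicates 1, 2 and 3, against 7.68, 8.76 and 8.23 in the 10-day replicates 1, 2 and 3. The 3 samples of 40 days lay close together and far below every sample of 10 days. The means were 3.18 ± 0.11 at 40 days and 8.22 ± 0.54 at 10 days (SD, n = 3 each). The difference was -5.04 ± 0.27 (log2, SE of the limma fit), but the 40-day level is only a bound, being near background. With every value under 4 set to 4 the difference was -4.22, a level at least 18.7-fold lower at 40 days on that floor. On the 40-day arrays between 29.2% and 29.9% of all probe sets lay below it, and on the 10-day arrays between 51.4% and 63.3%. Paired by replicate number, the difference was -4.62 for number 1, -5.50 for number 2 and -5.01 for number 3. Among the 10286 probe sets tested its difference ranked 2 by size, after *CG7900*, and 11 of them, or 0.107%, differed by at least 3 on the log2 scale in either direction. These ranks describe the values that chose the cluster. No second probe set of *alpha-Est2* was at hand, and RefSeq places an antisense RNA, asRNA:CR46129, over the gene, whose part in the signal was not tested.

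**Figure D1:**
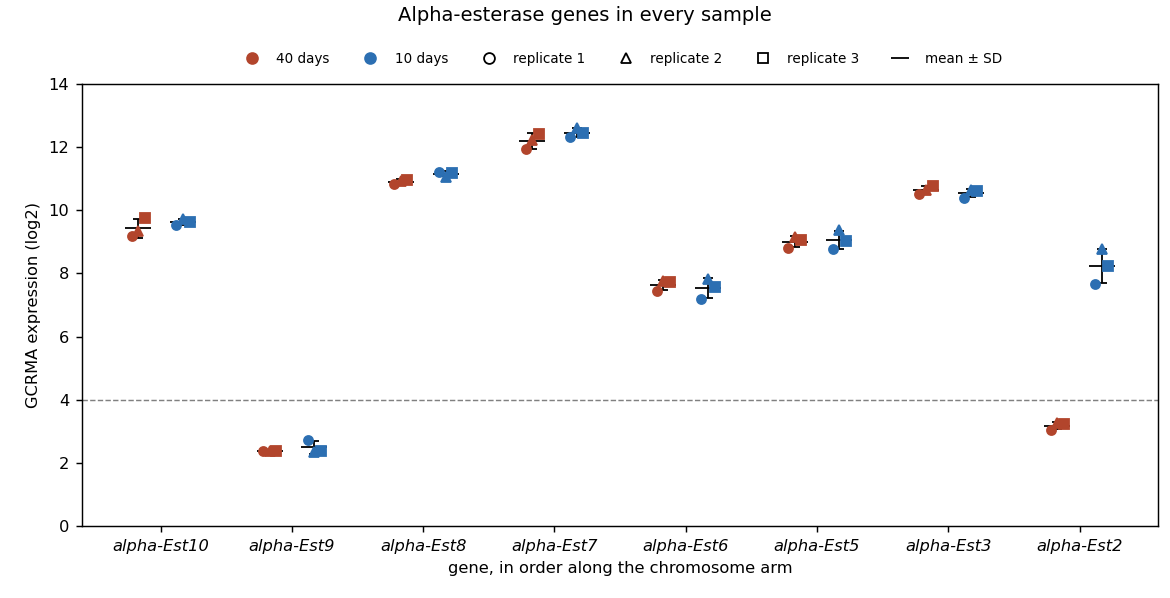
GCRMA expression (log2) of the 8 alpha-esterase probe sets, in gene order along the chromosome arm, for each sample; points are samples with 40 days left of 10 days, bars are mean ± SD (n = 3), and the dashed line is the filter at 4. Only *alpha-Est2* parts widely, with 40-day values of 3.06 to 3.27 and 10-day values of 7.68 to 8.76, and *alpha-Est9* lies near the floor at both ages.

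*alpha-Est3*, the next gene along the arm, was clearly measured at both ages and did not share that pattern. Its values were 10.50, 10.64 and 10.78 in the 40-day replicates 1 to 3, against 10.38, 10.64 and 10.59 in the 10-day replicates. The ages overlapped. The difference was 0.10 ± 0.11 (SE), with a 95% interval from -0.16 to 0.36 (limma adjusted p = 0.727). It was 0.02 without 10-day replicate 1, 0.03 without 40-day replicate 3, 0.15 without 10-day replicate 2 or both samples of number 2, and 0.17 without 40-day replicate 1. Set against it within each replicate number, the difference of *alpha-Est2* minus that of *alpha-Est3* was -4.74, -5.50 and -5.19 for numbers 1, 2 and 3. RefSeq places another antisense RNA, asRNA:CR46128, over *alpha-Est3* and *alpha-Est4*. On its other side *alpha-Est2* borders *alpha-Est1*, so only 1 of its immediate neighbours has values here.

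*alpha-Est5*, beyond *alpha-Est4* in the array, was at 8.80, 9.15 and 9.07 in the 40-day replicates 1 to 3, against 8.78, 9.36 and 9.03 in the 10-day replicates. Replicate 1 was the lowest sample and replicate 2 the highest at both ages, and the ages overlapped. Its difference was -0.05 ± 0.17 (SE; 95% interval -0.47 to 0.37; limma adjusted p = 0.924), and the sign turned when 10-day replicate 2 (0.10), 40-day replicate 1 (0.05) or both samples of number 2 (0.031) were left out. *alpha-Est6* was at 7.45, 7.75 and 7.71 in the 40-day replicates, against 7.19, 7.82 and 7.58 in the 10-day replicates. Replicate 1 was again the lowest and replicate 2 the highest at both ages. The difference was 0.11 ± 0.18 (SE; 95% interval -0.33 to 0.54; limma adjusted p = 0.831), and -0.06 when 10-day replicate 1 was left out.

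*alpha-Est7*, the gene whose blowfly counterpart is known for insecticide resistance, was at 11.93, 12.23 and 12.41 in the 40-day replicates 1 to 3, against 12.31, 12.59 and 12.44 in the 10-day replicates. The 40-day sample was the lower one in each replicate number, with differences of -0.38, -0.36 and -0.03, yet the ages overlapped. The difference was -0.26 ± 0.14 (SE; 95% interval -0.60 to 0.09; limma adjusted p = 0.488), and -0.12 without 40-day replicate 1. With the replicate number as a block, that is, with samples of the same number compared with each other, the interval was -0.47 to -0.04 and the adjusted p 0.161.

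*alpha-Est8* was the other member whose ages did not overlap. Its values were 10.82, 10.92 and 10.96 in the 40-day replicates 1 to 3, against 11.21, 11.06 and 11.18 in the 10-day replicates. All 3 samples of 40 days lay just below all 3 of 10 days, and groups parted in this direction for 8.42% of the tested probe sets. The difference was -0.25 ± 0.07 (SE), a level 1.19-fold lower at 40 days, with a 95% interval from -0.43 to -0.07. It did not pass the limma test over all probe sets, with an adjusted p of 0.291, and of 0.126 with the replicate block.

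*alpha-Est10*, the member farthest from *alpha-Est2*, was at 9.18, 9.35 and 9.76 in the 40-day replicates 1 to 3, against 9.53, 9.72 and 9.61 in the 10-day replicates. The 40-day replicates 1 and 2 lay below every 10-day sample and replicate 3 above them all. The difference was -0.19 ± 0.16 (SE; 95% interval -0.57 to 0.20; limma adjusted p = 0.644), with -0.06 when 40-day replicate 1, -0.35 when 40-day replicate 3 and -0.10 when both samples of number 2 were left out. *alpha-Est9* was at 2.39, 2.38 and 2.37 in the 40-day replicates, against 2.74, 2.36 and 2.38 in the 10-day replicates. Between 26.2% and 28.1% of probe sets lay below it on each array, and values this near the floor carry no difference.

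Across the 6 tested members other than *alpha-Est2*, none passed the limma test between the ages, where 0.340% of all tested probe sets did, and none passed with the block, where 1.92% did. Nothing is read from these counts, since the cluster was chosen on this contrast. At an unadjusted p under 0.05 the count was 1 of 6, *alpha-Est8*, against 13.1% of all tested probe sets, and 2 of 6 with the block, against 25.1%. Their median difference was -0.12, with 4 members below 0 and 2 above, beside a median of 0.01 over all tested probe sets. With the block the 95% intervals were -0.06 to 0.26 for *alpha-Est3* and -0.26 to 0.16 for *alpha-Est5*. They were -0.13 to 0.34 for *alpha-Est6* and -0.51 to 0.13 for *alpha-Est10*. The 95% intervals of all 6, unadjusted and from 1 probe set per gene, lay within 1 log2 unit of 0, with or without the block. Taken 1 gene at a time, a 2-fold change in either direction lay outside them, while smaller changes are not shown to be absent. For any of these 6 genes and any replicate number, the difference of *alpha-Est2* minus that of the other gene lay between -5.50 and -4.23, and between -4.76 and -3.29 with values floored at 4. This gap is a description, with *alpha-Est2* picked for its own difference.

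The genes of other families in and beside the cluster also had small differences. RefSeq has 5 protein coding genes between the members, and with the 5 nearest on each side there were 15, of which 10 had a probe set and 5 a tested one. Between the members, *Mics1*, which encodes a mitochondrial membrane protein, was at 11.17, 11.30 and 11.36 in the 40-day replicates, against 11.05, 11.15 and 11.29 in the 10-day replicates, a difference of 0.11 (limma adjusted p = 0.630). The reticulon-like gene *Rtnl2* was at 9.79, 9.97 and 10.01 in the 40-day replicates, against 9.68, 9.73 and 9.98 in the 10-day replicates, a difference of 0.13 (limma adjusted p = 0.647). The ages overlapped for both. The alpha tubulin gene *alphaTub84D* was near background on its probe set, at 3.06 ± 0.01 at 40 days and 3.03 ± 0.03 at 10 days (SD, n = 3 each).

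Outside the cluster, *CG1142*, next to *alpha-Est10*, gave -0.09, *wa-cup*, a gene of late sperm development, 0.02, and *CG2616*, beyond *alpha-Est1*, 0.13. For *CG1142* the ages just parted, with 40-day values up to 8.76 and 10-day values from 8.79. Groups parted in this direction for 8.42% of the tested probe sets. Limma adjusted p of the 5 tested neighbours lay between 0.541 and 0.924, with 0 of 5 at an unadjusted p under 0.05, where 13.1% of all tested probe sets were, and 0 of 5 with the block, where 25.1% were. Nothing is read from counts over 5 probe sets. The neuroligin genes *Nlg3* and *Nlg1*, which follow beyond *alpha-Est1* and encode synaptic adhesion proteins of the same carboxylesterase fold, were at or near the floor on all of their probe sets, with means between 2.06 and 3.08 at 40 days and between 2.06 and 2.95 at 10 days. The olfactory receptor gene *Ir84a* and *CG14598* lay at 2.06 at both ages. *Ubc84D*, *CG42656*, *CG42650*, *CG45545* and *CG43254* had no probe set of their own and were not analysed here.

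**Figure D2:**
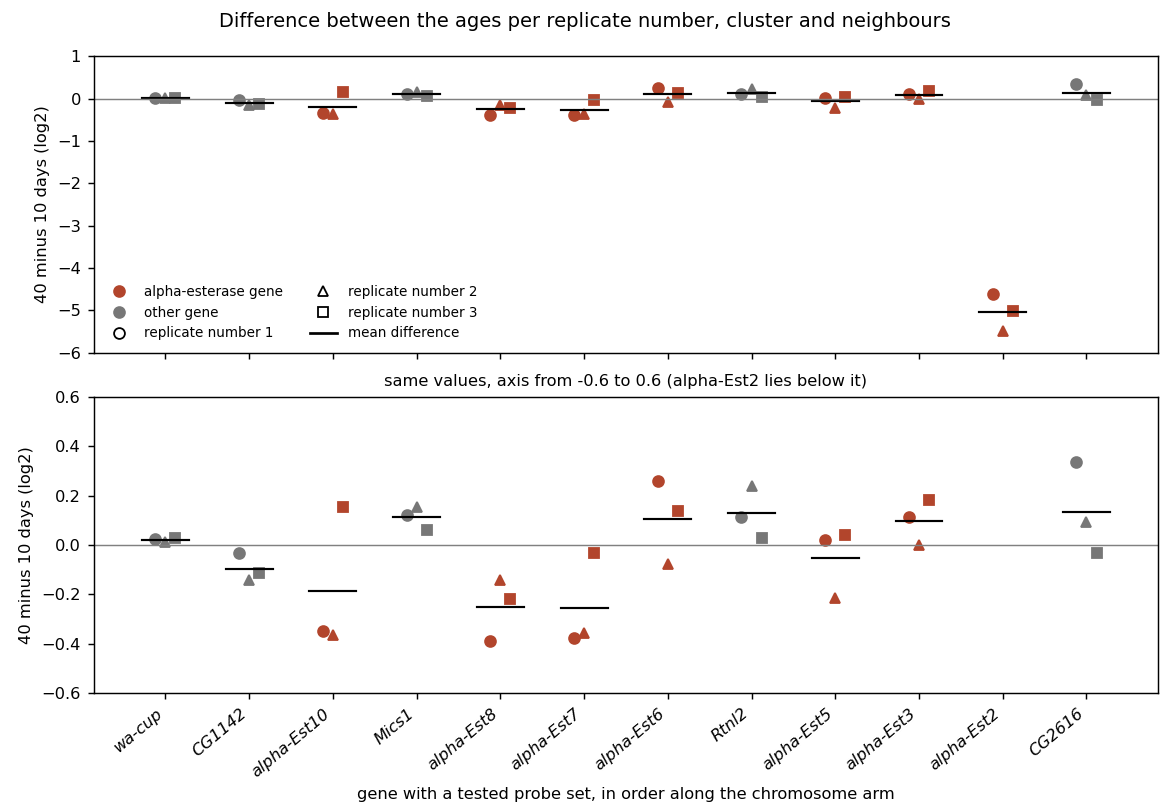
Difference of 40 minus 10 days (log2) for each replicate number, for alpha-esterase genes and other genes with a tested probe set, in order along the chromosome arm; points are replicate numbers and bars their mean, and the lower panel repeats the values on a narrower axis. *alpha-Est2* lies between -5.50 and -4.62, while every other point lies between -0.39 and 0.34.

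Within an age, the samples of replicate number 1 were often the lowest. Leaving out *alpha-Est2*, whose 40-day values are near background, the mean of both samples of a number was lowest in number 1 for 5 of the other 6 tested members, *alpha-Est8* being the exception, while 39.2% of all tested probe sets were lowest in number 1. The members share the same 6 arrays, so they are not independent of each other in this. The range between the numbers was widest for *alpha-Est6*, at 0.46, and narrowest for *alpha-Est8*, at 0.08, with a median of 0.32 over the 6 and of 0.20 over all tested probe sets. *alpha-Est2* at 10 days ran from 7.68 in replicate 1 to 8.76 in replicate 2. In a fit of age and number together, none of the 6 other members passed limma's F test between the numbers, where 4.72% of all tested probe sets passed. Their adjusted p lay between 0.118 for *alpha-Est5* and 0.743 for *alpha-Est8*. At an unadjusted p under 0.05 in that test the count was 3 of 7, against 25.4% of all tested probe sets. The 7 include *alpha-Est2*, so nothing is read from that count.

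**Figure D3:**
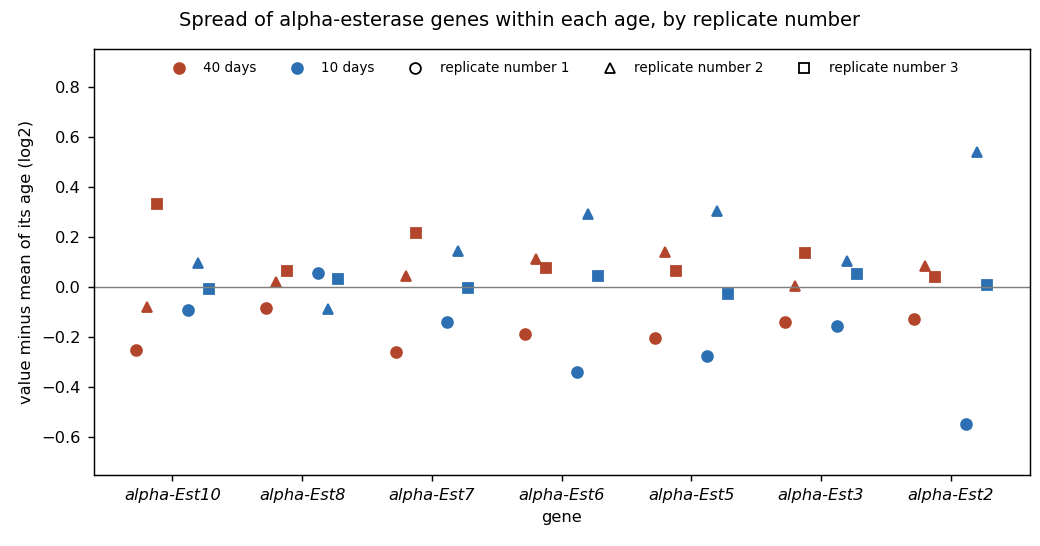
Each sample's value minus the mean of its age (log2) for the 7 tested alpha-esterase genes, with 40 days left of 10 days and a symbol per replicate number. Number 1 lies lowest at both ages for every gene but *alpha-Est8*, though the 40-day order of *alpha-Est2*, near background, carries no weight, and the widest spread is that of *alpha-Est2* at 10 days, from -0.55 to 0.54.

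Single markers of other tissues differed between the ages. The summed signal of their lists, in which the brightest genes weigh most, did not part them, while the median of the hemocyte list did. On the log2 scale of that sum, the 8 measured Malpighian tubule markers ran from 13.03 to 13.13 at 40 days and from 13.05 to 13.40 at 10 days. The 11 genes of the fat body list ran from 17.20 to 17.44 at 40 days and from 17.23 to 17.46 at 10 days. The 8 gut enzymes ran from 17.35 to 17.67 at 40 days and from 17.36 to 17.59 at 10 days. The 7 hemocyte markers ran from 13.37 to 13.48 at 40 days and from 13.48 to 13.67 at 10 days, ranges that just met. The fat body sum leaned on *Cyp4g1*, at 16.07, and the hemocyte sum on *SPARC*, at 13.26. Neither sum is a measure of its tissue as a whole. The 8 photoreceptor and neuron markers ran from 15.63 to 15.82 at 40 days and from 15.68 to 15.77 at 10 days, and the 10 genes of the male tract from 18.01 to 18.13 at 40 days and from 17.76 to 18.17 at 10 days. The ovary and egg list was near the floor, with no gene tested. By the median of each sample, the hemocyte list parted the ages, with 7.833, 7.17 and 7.917 in the 40-day replicates 1 to 3. Its 10-day medians were 8.541, 8.004 and 8.662. The middle gene was a prophenoloxidase gene, *PPO1* or *PPO2*, in every sample but 40-day replicate 1, where it was *Pxn*. The medians of the other tested lists overlapped between the ages. Of the tubule list, 1 of 8 tested genes fell by limma without the block, the organic anion transporter gene *Oatp58Db*, with a difference of -3.79. It was put on the list with that change known. Its 40-day values were 3.61, 3.76 and 3.69, near background, so it passed the filter only through its 10-day values. Its fall is therefore a description and not offered as a test. Of the male list 1 of 10 fell, the sperm gene *dj* (limma adjusted p = 0.00347), and of the gut, fat body, hemocyte, and photoreceptor and neuron lists none did. With the block, 1 of 8 gut, 1 of 8 fat body, 2 of 8 tubule, 1 of 10 male tract and 2 of 7 hemocyte genes tested fell, 0 of 7 photoreceptor and neuron genes did, and none rose. In all 2 of 48 tested markers fell without the block, where 0.175% of all tested probe sets did, and 7 of 48 with it, where 1.30% did. Both counts, and the count of 5 that follows, include *Oatp58Db* and are not offered as support. Without overlap of the ages, 5 of 48 were lower at 40 days (*Oatp58Db*, *dj*, *PPO1*, *PPO2* and *Cyp6a18*), beside 8.42% of all tested probe sets, and 3 of 48 higher (*Yp1* and the testis genes *Mst84Db* and *betaTub85D*), beside 11.4%. Among hemocyte markers the prophenoloxidase genes *PPO1* and *PPO2* gave -1.04 and -1.10, and the tubule list's P450 gene *Cyp6a18* gave -0.86. Their limma adjusted p was 0.310, 0.233 and 0.312. With the block it was 0.0367, 0.0314 and 0.0253, so they were called only with it. The other hemocyte markers moved less, with *Hml* at 0.11, *Pxn* at 0.15, *eater* at -0.03, *SPARC* at -0.11 and *NimC1* at -0.23. None of those was called with or without the block. The larval serum protein gene *Lsp2*, of the fat body list, was at 2.95, 2.96 and 7.55 in the 40-day replicates 1 to 3. Its 10-day values were 5.79, 4.92 and 9.30. It was lower at 40 days in each replicate number, by differences of -2.84, -1.96 and -1.76 (limma adjusted p = 0.599, and 0.0317 with the block). For numbers 1 and 2 these are only bounds, the 40-day values being near background. The yolk protein gene *Yp1* of the same list gave 2.01 (limma adjusted p = 0.403, and 0.154 with the block). By replicate number its differences were uneven, at 0.18, 2.33 and 3.52 for numbers 1, 2 and 3. The median difference of the 8 tested genes of the fat body list was -0.19. The part of any of these tissues in the difference of *alpha-Est2* was not tested. In pooled samples, fewer cells of a type and less RNA per cell cannot be told apart.

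Among other genes of the carboxylesterase fold, 1 differed by as much as 4-fold. The list holds 24 genes outside the cluster, among them esterases, the acetylcholinesterase gene and adhesion proteins without esterase activity, of which 23 had a probe set and 13 a tested one. None of the 13 passed the limma test between the ages, with 1 of 13 at an unadjusted p under 0.05, where 13.1% of all tested probe sets were, and 3 of 13 with the block, where 25.1% were. After adjustment with the block 0 rose and 1 fell, where 0.622% and 1.30% of all tested probe sets did. Their median difference was -0.14, with 9 below 0 and 4 above. The other 10 genes with a probe set, *Est-P* and *Nlg4* among them, lay under the filter.

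*CG4757*, a predicted carboxylesterase, was the member called with the block. Its values were 8.53, 8.14 and 8.75 in the 40-day replicates 1 to 3, against 9.91, 10.12 and 11.40 in the 10-day replicates. All 40-day samples lay below all 10-day samples, and 10-day replicate 3 stood above the other 10-day samples. The difference was -2.00 ± 0.41 (SE; limma adjusted p = 0.174), and the adjusted p was 0.0384 with the block. Without both samples of number 2 no gene of the list was called, with or without the block.

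Juvenile hormone esterase, encoded by *Jhe*, breaks down a hormone of development and reproduction, and its transcript parted by replicate number. Its values were 5.82, 3.31 and 4.77 in the 40-day replicates 1 to 3, against 6.04, 3.65 and 6.29 in the 10-day replicates. Replicate 2 was lowest at both ages and under 4, near background. *Jhe* passed the F test between the numbers (limma adjusted p = 0.0460) and not the test between the ages, where it differed by -0.69 (95% interval -2.92 to 1.54; limma adjusted p = 0.781). The F test call ended with no filter on dim probe sets (limma adjusted p = 0.245), without a trend (0.0623) and with values floored at 4 (0.0979), settings tried on this gene after seeing the data. Its duplicate *Jhedup* differed by -0.33 (limma adjusted p = 0.560).

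*Est-Q*, a further esterase gene, was at 9.97, 10.80 and 10.18 in the 40-day replicates 1 to 3, against 10.10, 11.17 and 10.53 in the 10-day replicates. Number 2 was the highest and number 1 the lowest at both ages, an order that *alpha-Est5* and *alpha-Est6* had as well. *Est-Q* passed the F test between the numbers (limma adjusted p = 0.0220), a call that ended only with no filter on dim probe sets (0.191) among the 5 alternatives run, and its difference between the ages was -0.28 (limma adjusted p = 0.748, and 0.111 with the block). Of the genes without esterase activity, *Nrt*, which encodes the adhesion protein neurotactin, gave 0.26 (limma adjusted p = 0.495) and *Gli*, which encodes gliotactin of epithelial junctions, gave -0.09 (limma adjusted p = 0.682).

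**Figure D4:**
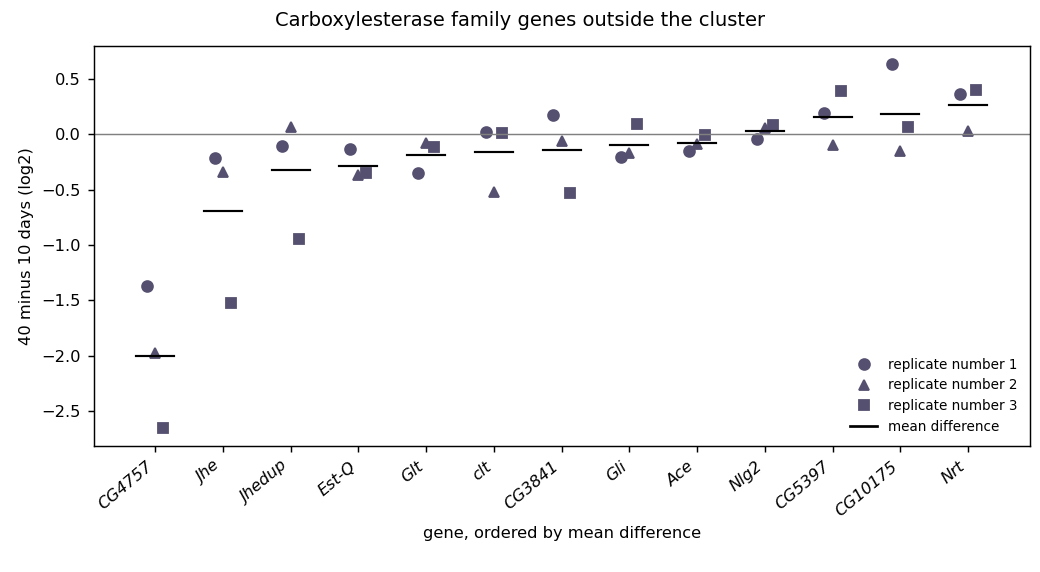
Difference of 40 minus 10 days (log2) for each replicate number, for the 13 tested genes of the carboxylesterase fold outside the alpha-esterase cluster, ordered by mean difference; points are replicate numbers and bars their mean. *CG4757* lies lowest with a mean of -2.00, and *Jhe* and *Jhedup* have their lowest difference in number 3.

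The probe sets most like *alpha-Est2* over the 6 samples were those of *CG1894*, *CG12895*, *Mipp1*, *dj* and *CG7900*, with Pearson r between 0.994 and 0.998. Over 6 points that fall into 2 ages, r is high for any probe set that parts the ages cleanly in this direction, and 25 tested probe sets, or 0.243%, reached an r of 0.98, so the likeness is a description of these arrays. In size only *CG7900* came close to *alpha-Est2*, at 3.24, 3.07 and 3.40 in the 40-day replicates 1 to 3, against 8.19, 8.45 and 8.23 in the 10-day replicates. It too was near background at 40 days in all 3 samples and clearly measured in every 10-day sample.

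The other 4 moved less and stayed well measured at both ages. *dj*, a sperm gene, averaged 8.32 ± 0.04 at 40 days and 9.51 ± 0.09 at 10 days (SD, n = 3 each), and *Mipp1*, which encodes an inositol polyphosphate phosphatase, averaged 11.04 ± 0.03 at 40 days and 11.47 ± 0.07 at 10 days. *CG1894* and *CG12895* had differences of -0.57 and -0.43. Within the cluster, r with *alpha-Est2* ran from -0.31 for *alpha-Est3* to 0.86 for *alpha-Est8*.

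**Figure D5:**
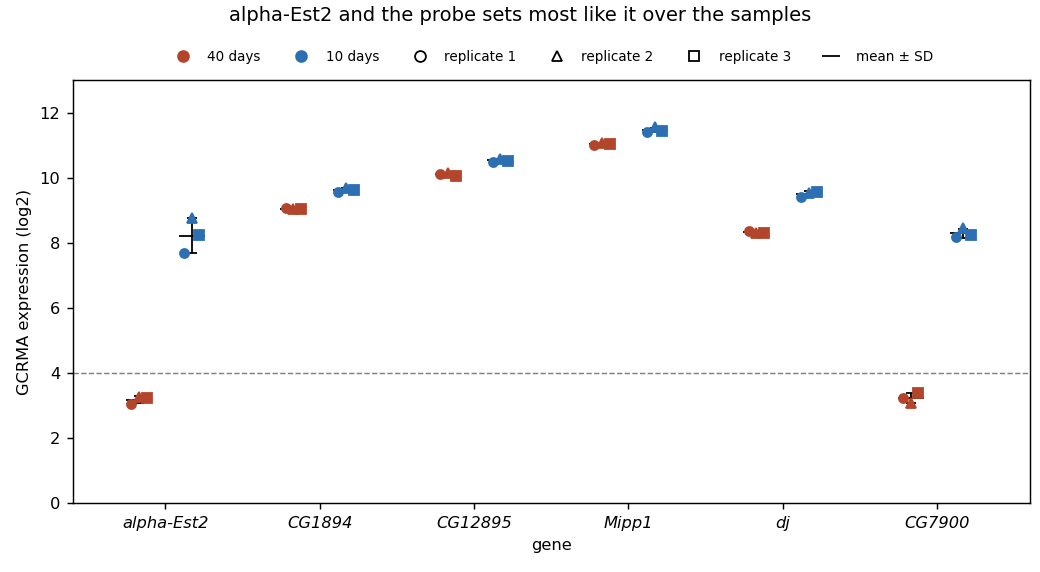
GCRMA expression (log2) of *alpha-Est2* and of the 5 probe sets with the highest Pearson r with it over the 6 samples; points are samples with 40 days left of 10 days, bars are mean ± SD (n = 3), and the dashed line is the filter at 4. *alpha-Est2* and *CG7900* lie under 4 at 40 days and above 7 at 10 days, while the other 4 genes differ by -1.18 to -0.43.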

How the data were processed

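The deposited values are log2 expression per probe set, made by the authors with GCRMA, a method of background correction, normalization and probe summary, per the submitters' processing notes. Its version is not given in the sources used here. RNA was amplified from 150 ng per sample, per the labels' protocols. Probe sets were named through the array's gene annotation: 13333 had 1 gene, 390 several and 1408 none. Gene order came from RefSeq (Release 6 plus ISO1 MT). No sequences are shown, since probe and gene sequences were not used here.

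Probe sets with a mean of at least 4, 10286 in all, were fitted with limma 3.58.1 in R 4.3.3 (lmFit, eBayes with a trend, two-sided) on all 6 samples, without further normalization, with Benjamini-Hochberg adjustment over all of them and a threshold of 0.05. Probe sets under 4 were described only. The F test used age and replicate number. The code was tested on simulated data. Tables and plots used Python, pandas 2.3.3 and matplotlib 3.10.9.

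The labels give replicate numbers 1 to 3 at each age without saying that they pair samples. After removing age means, same-number samples correlated at 0.707, 0.772 and 0.353, all above 0.1. The numbers were therefore used for the paired differences and as the block. Correlations between samples of different numbers are not given here, so a true pairing is not established. The main fit left the numbers out. Its SE, intervals and adjusted p between the ages are unpaired, and paired values are those given with the block. Members, lists and tests were chosen with earlier results of these data known. Named were all members, the neighbours, the 4 family genes with the smallest adjusted p and every called one, the 5 genes most like *alpha-Est2*, and the brightest gene of each tissue list. *Jhe* and *Est-Q*, the family genes that passed the F test, and *Oatp58Db*, *Est-P*, *Nlg4*, *PPO1*, *PPO2*, *Cyp6a18*, *Lsp2*, *Yp1*, *Mst84Db* and *betaTub85D* were named after their values were seen. So were the hemocyte markers *Hml*, *Pxn*, *eater* and *NimC1*. Alternatives were other filters on dim probe sets, quantile normalization, eBayes without a trend, a replicate block, a floor at 4, and samples left out.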

Additional observations from a re-analysis of the deposited data

How the results depend on the processing

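The count of 35 probe sets that passed between the ages was 198 with the replicate block, 17 without both samples of number 2 and 21 when dim probe sets were filtered at 6. It ran from 16 to 32 with 1 sample left out, and was 118 with the block and without number 2, a fit chosen after seeing the data. The 485 probe sets that passed between replicate numbers became 1 with no filter on dim probe sets, which ended the calls of *Jhe* and *Est-Q*. The count of 0 called carboxylesterase genes became 1 with the block. The median difference of the tested members, -0.19 with *alpha-Est2* included, ran from -0.28 to -0.06. It is not offered as support, and without *alpha-Est2* the median was -0.12. The sign of *alpha-Est5* turned without both samples of number 2 (0.031, with or without the block) and with 1 sample left out (range -0.19 to 0.10), and that of *alpha-Est6* with 1 sample left out (range -0.061 to 0.25). *alpha-Est2* was -4.22 with values floored at 4, ran from -5.32 to -4.77 with 1 sample left out, was -4.81 without number 2, and dropped out at the filter of 6. The cause of these changes was not tested, except that the floor and the filter act on its dim 40-day values. Differences ran from -0.35 to -0.06 for *alpha-Est10*, from -0.36 to -0.12 for *alpha-Est7* and from 0.02 to 0.17 for *alpha-Est3* with 1 sample left out. The 6 other tested members stayed on their side of the threshold under every alternative run, *alpha-Est9* was not tested, and the block changed no call of a member; beyond the counts above and those of the tissue lists, it changed no other call given in the text. A mean over several probe sets of a gene was not run, since each member has 1. No detection calls were at hand, so values near the floor carry no order.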
